A study of Mus musculus with 12 samples.

Results

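The light chains of the B cell receptor were read in the aortas of 4 groups of mice, from 1 B cell receptor (BCR) library per group. A light chain was taken as the productive kappa (IGK) or lambda (IGL) contig with the most unique molecular identifiers (UMIs) of a barcode, the short tag shared by all molecules captured with one droplet. This gave 8137 barcodes with a light chain out of 8280 barcodes with any receptor contig, of which 7817 held a kappa chain and 320 a lambda chain. By the labels and the methods, all mice were male C57BL/6J ApoE−/− animals, 8 weeks old at the start and studied for 24 weeks. Mice of the group labelled Healthy ate a normal diet and were given saline. The AS (atherosclerosis) group received a diet with 1% cholesterol and 10% fat, and saline. The MTZ-treated and MTZ-preventive groups received the same diet as AS with methazolamide (written methoxazolamide in the labels) at 25 mg/kg by gavage every other day, for the last 12 weeks or for all 24 weeks. For sequencing, 6 aortas were pooled per group. ApoE−/− mice lack apolipoprotein E in every cell, so they are a model of raised blood lipids rather than of a change in B cells.

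An antibody is made of paired heavy and light chains, and each B cell normally builds its light chain once, by joining 1 variable (V) gene to 1 joining (J) gene at the kappa locus or, where that fails, at the lambda locus. The mouse kappa locus holds many V genes and 4 working J genes, and a cell can replace a first kappa join by joining a V gene farther away to a J gene farther downstream. The mouse lambda locus is small, and most mouse B cells carry kappa. The complementarity determining region 3 (CDR3) spans the join. Cells that descend from one B cell keep the same heavy and light chain, while unrelated cells can reach the same light chain independently, because a light chain join has no D segment and few added bases.

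Each group has 1 library and no replicate, so the spread between animals is unknown for every difference given here. The intervals given are exact 95% intervals for counting error alone, and no p-values were computed. The light chain barcodes numbered 4612 for the group labelled Healthy, 965 for AS, 334 for MTZ-treated and 2226 for MTZ-preventive. Of these, 96.7%, 7.98%, 68.6% and 92.2% were also called as cells in the gene expression library of the same group, which held 6908 to 23963 barcodes. Among the light chain barcodes in the gene expression libraries, 88.3%, 35.1%, 68.6% and 82.4% had a UMI of at least 1 of the B cell genes Cd79a, Cd79b and Ms4a1. In AS, 58.4% of them had a UMI of the neutrophil gene S100a8, against 43.2% of the AS barcodes with no light chain contig, and 0.403% to 0.873% of them in the other libraries. The gap in AS was narrower for the neutrophil genes S100a9 (53.2% against 50.7%) and Retnlg (40.3% against 31.5%). A heavy chain was found in 53.5%, 28.8%, 37.1% and 48.0% of the light chain barcodes. The median light chain contig had 7, 4, 6 and 7 UMIs inside the gene expression barcodes. Apoe was at 696 CPM (UMIs scaled to 1000000 per library) in the library labelled Healthy and at 11.4, 11.8 and 8.98 CPM in the other libraries, which goes against an ApoE−/− genotype for the first. That library is therefore called by its label, and every direction drawn from it carries this limit.

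To show how a light chain CDR3 is read, the commonest CDR3 of IGKV1-117 with each working kappa J gene is given here in the 5′ to 3′ direction. Capitals mark the codon just before the last pair of codons of the CDR3, which lies at the join and differs between the J genes.
IGKV1-117 to IGKJ1: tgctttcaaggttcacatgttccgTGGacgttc
IGKV1-117 to IGKJ2: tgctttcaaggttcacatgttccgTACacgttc
IGKV1-117 to IGKJ4: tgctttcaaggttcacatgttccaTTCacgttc
IGKV1-117 to IGKJ5: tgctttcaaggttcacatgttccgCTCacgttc
Each of these was found in most barcodes of its join. The IGKJ1 form made up 127 of 162 barcodes with that join, the IGKJ2 form 70 of 74, the IGKJ4 form 68 of 70 and the IGKJ5 form 27 of 36. They were carried with many heavy chains: the 44 barcodes of the IGKJ1 form that had a heavy chain held 43 different ones. Over all distinct kappa chains the capitalised codon was TGG in 50.9% of 293 IGKJ1 chains, TAC in 79.4% of 262 IGKJ2 chains, TTC in 82.8% of 134 IGKJ4 chains and CTC in 72.1% of 233 IGKJ5 chains. For 64 of the 949 distinct light chains the files called more than 1 J gene for the same CDR3. These chains held 763 of the 8137 light chain barcodes (9.38%), a limit on the J gene counts below.

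The lambda chains are shown in the same way, with the commonest CDR3 of 3 of the 4 main joins over the libraries together. The first of these held most of the lambda barcodes of MTZ-treated, the library with the highest lambda share over all barcodes.
IGLV1 to IGLJ1: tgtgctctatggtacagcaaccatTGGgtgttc
IGLV1 to IGLJ3: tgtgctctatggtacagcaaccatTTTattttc
IGLV2 to IGLJ2: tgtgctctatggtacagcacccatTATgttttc
The IGLV2 form was found in 65 barcodes labelled Healthy, 7 MTZ-treated and 16 MTZ-preventive barcodes, and 40 of them had a heavy chain, of which 38 were different. The commonest IGLV3 form held 45 bases where these 3 held 33, and its 17 barcodes with a heavy chain had 17 different heavy chains. The IGLV1 to IGLJ1 form stood apart in MTZ-treated. It was in 8, 37 and 18 barcodes of the libraries labelled Healthy, MTZ-treated and MTZ-preventive, and 48 barcodes with a heavy chain held 14 different ones. In MTZ-treated 35 barcodes shared 1 heavy chain, while in MTZ-preventive 10 barcodes had 10 different ones.

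The share of light chains that were lambda differed widely between the libraries when each barcode was counted. It was 4.01% (95% interval 3.46 to 4.62) in the library labelled Healthy, where 185 of 4612 barcodes were lambda and the kappa to lambda ratio was 23.9. In MTZ-preventive it was 3.55% (2.82 to 4.40), with 79 of 2226 barcodes and a ratio of 27.2. In MTZ-treated it was 16.8% (12.9 to 21.2), with 56 of 334 barcodes and a ratio of 4.96. AS had 0 of 965, which allows a share of up to 0.311%. The first and last groups differed by less than counting error, with an MTZ-preventive share 0.885 times that of the library labelled Healthy (0.671 to 1.16). MTZ-treated was 4.18-fold higher than the library labelled Healthy (3.04 to 5.66). With AS set at 0.311%, its share was 12.9-fold lower than that of the library labelled Healthy. MTZ-treated and MTZ-preventive were then 53.9-fold and 11.4-fold higher than AS. These ratios leave out the counting error of the other library, and the exact interval for AS reaches 0.382%. They also treat the 965 AS barcodes as independent, although these held only 43 distinct light chains. By distinct light chain AS allows a share of up to 6.98%, so the fold values hold for barcodes only.

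Whether a barcode was also called as a cell changed the lambda share in some libraries. Inside the gene expression barcodes the share was 3.77% of 4462 in the library labelled Healthy, 21.0% of 229 in MTZ-treated and 3.65% of 2053 in MTZ-preventive. Outside them it was 11.3% of 150 (6.74 to 17.5), 7.62% of 105 (3.35 to 14.5) and 2.31% of 173 (0.633 to 5.81). The order of the libraries labelled Healthy and MTZ-treated was thus turned outside the gene expression barcodes, with a ratio of 0.672 whose interval (0.251 to 1.64) includes 1. In AS the share was 0 of 77 inside, which allows up to 3.90%, and 0 of 888 outside, which allows up to 0.338%.

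Counting each distinct chain once brought the libraries closer together. By distinct V gene with CDR3 nucleotides, lambda made up 2.59% of 773 light chains in the library labelled Healthy, 6.15% of 130 in MTZ-treated and 3.14% of 542 in MTZ-preventive, and 0 of 43 in AS, which allows up to 6.98%. By distinct pair of heavy and light chain it made up 4.50% of 1933 pairs (3.62 to 5.52), 6.98% of 43 (1.46 to 19.1) and 4.65% of 925 (3.38 to 6.21). The ratio of MTZ-treated to the library labelled Healthy by pair was 1.55 (0.314 to 4.68), and AS had 0 of 22 pairs, which allows up to 13.6%. Among barcodes with a B cell marker UMI the shares were 4.11% of 3940, 7.01% of 157 (3.55 to 12.2) and 3.78% of 1692, and AS had 0 of 27, which allows up to 11.1%.

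**Figure D1:**
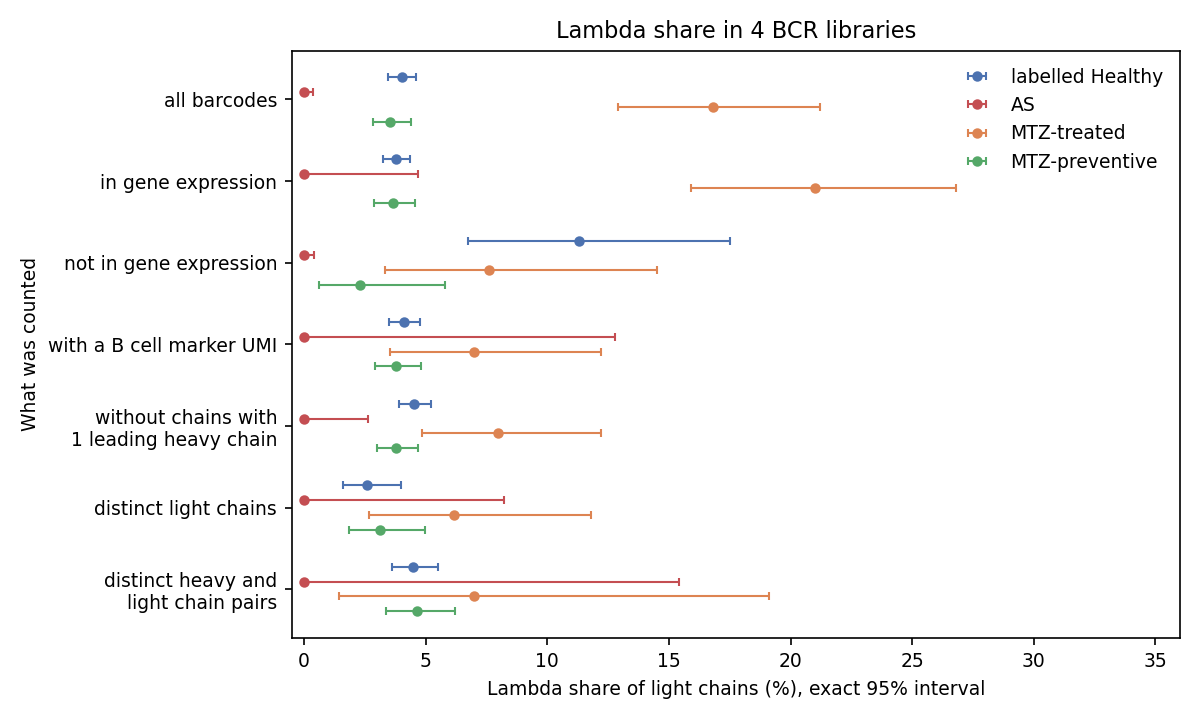
Lambda share of light chains in percent (x axis) for 7 ways of counting (y axis) in the 4 BCR libraries, with exact 95% intervals for counting error as bars. MTZ-treated lies at 16.8% over all barcodes and at 6.98% over distinct pairs of heavy and light chain, where its interval covers the values of the libraries labelled Healthy (4.50%) and MTZ-preventive (4.65%), while AS is at 0 throughout with intervals that reach 15.4%.

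The lambda barcodes of MTZ-treated were mostly of 1 kind. The join of IGLV1 to IGLJ1 with the constant gene IGLC1 made up 41 of its 56 lambda barcodes (73.2%), against 66 of 185 (35.7%) in the library labelled Healthy and 31 of 79 (39.2%) in MTZ-preventive. Within this join, 37 MTZ-treated barcodes carried the CDR3 printed above. Of these, 35 had a heavy chain, in all 35 the same IGHV6-3 chain of the IgA class, the antibody class of mucosal secretions. In the gene expression library 35 of the 37 were present, and 3 of them (8.57%) had a B cell marker UMI. When every light chain with 1 leading heavy chain was left out of each library, as defined further on, MTZ-treated kept 19 lambda of 238 barcodes, 7.98% (4.87 to 12.2). That was 1.76-fold (1.03 to 2.82) the 4.54% found in the library labelled Healthy in the same way.

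The other lambda joins were read as follows. IGLV2 to IGLJ2 with IGLC2 made up 39.5% of lambda barcodes in the library labelled Healthy, 12.5% in MTZ-treated and 21.5% in MTZ-preventive. IGLV1 to IGLJ3 with IGLC3 made up 10.3%, 5.36% and 25.3%, and IGLV3 to IGLJ2 with IGLC2 13.0%, 7.14% and 11.4%. Joins across these units were rare, with 2, 1 and 2 barcodes of IGLV2 to IGLJ1. In MTZ-preventive 10 of the 20 barcodes of IGLV1 to IGLJ3 were 1 chain. Of its 9 barcodes with a heavy chain, 8 shared the same one, too few barcodes for it to be classed further on. By distinct pair IGLV2 to IGLJ2 with IGLC2 held 33.3% of 87 lambda pairs in the library labelled Healthy and 30.2% of 43 in MTZ-preventive, closer than by barcode. IGLV3 to IGLJ2 lay farther apart than by barcode, at 16.1% and 6.98% of those pairs, and IGLV1 to IGLJ3 was at 9.2% and 18.6%.

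Light chains that occurred in many barcodes were of 2 kinds, which were told apart by their heavy chains. In the library labelled Healthy 773 distinct light chains filled 4612 barcodes, a mean of 5.97 barcodes per chain, and in MTZ-preventive the mean was 4.11 over 542 chains. MTZ-treated had 130 chains with a mean of 2.57, and AS had 43 chains with a mean of 22.4. The 10 commonest chains held 18.4% of the barcodes for the group labelled Healthy, 94.7% for AS, 44.6% for MTZ-treated and 14.2% for MTZ-preventive. Heavy chains were compared for light chains with at least 10 barcodes that also had one. In the library labelled Healthy 43 of 49 such light chains were carried with many heavy chains, with a median of 100 different heavy chains per 100 barcodes, and 6 had 1 leading heavy chain. In MTZ-preventive 10 of 15 had many and 5 had 1 leading heavy chain. In AS all 6, and in MTZ-treated all 3, had 1 leading heavy chain. These 2 libraries held only 22 and 43 distinct pairs over all light chains. A light chain with many heavy chains could therefore hardly reach 10 such barcodes there, and these counts do not show a difference from the deeper libraries.

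**Figure D2:**
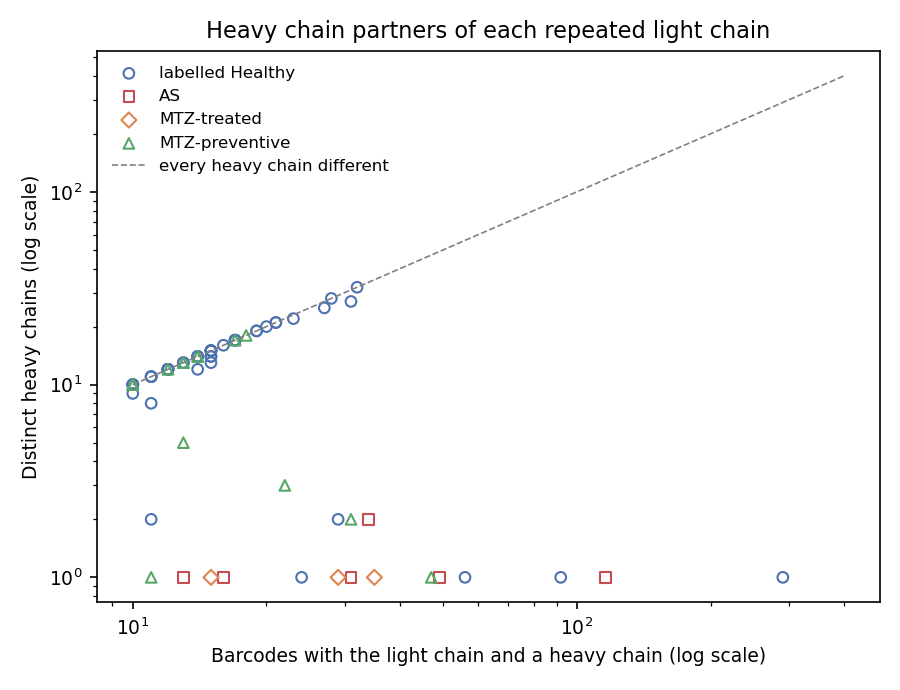
Number of distinct heavy chains (y axis, log scale) against the number of barcodes with a heavy chain (x axis, log scale) for each light chain with at least 10 such barcodes, 1 point per chain and library, and a dashed line where every heavy chain would be different. The points fall along the line or near the bottom at 1 to 5 heavy chains, and all 6 chains of AS and all 3 of MTZ-treated lie at the bottom. AS and MTZ-treated held few distinct pairs, so a chain with many heavy chains could hardly reach 10 barcodes there.

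Light chains with 1 leading heavy chain also differed from all other light chains in the gene expression libraries. The light chains with 1 leading heavy chain held 11.7% of the light chain barcodes for the group labelled Healthy, 85.7% for AS, 28.7% for MTZ-treated and 6.20% for MTZ-preventive. Of their barcodes, 95.2%, 4.72%, 39.6% and 84.1% were among the gene expression barcodes, and of those 47.2%, 7.69%, 7.89% and 50.9% had a B cell marker UMI. All other light chain barcodes had a B cell marker UMI in 93.6%, 63.2%, 80.6% and 84.3% of cases. These others include chains with too few heavy chains to class. In AS and MTZ-treated no chain was classed as having many heavy chains. Barcodes of chains with 1 leading heavy chain were also shallower in gene expression. Their median was 823 against 1924 UMIs in the library labelled Healthy and 890 against 1052 in AS.

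The leading kappa chains with 1 heavy chain are given next, 1 or 2 for each library, because the barcode counts of the V and J genes turn on them.
IGKV5-39 to IGKJ1, library labelled Healthy: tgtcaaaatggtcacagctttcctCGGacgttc
IGKV5-43 to IGKJ1, library labelled Healthy: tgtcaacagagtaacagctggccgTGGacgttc
IGKV9-124 to IGKJ5, AS: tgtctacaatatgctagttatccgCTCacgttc
IGKV4-91 to IGKJ4, AS: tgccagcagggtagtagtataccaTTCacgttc
IGKV8-24 to IGKJ5, MTZ-treated: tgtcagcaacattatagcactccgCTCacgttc
IGKV1-133 to IGKJ2, MTZ-treated: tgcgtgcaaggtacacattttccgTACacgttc
IGKV4-70 to IGKJ1, MTZ-preventive: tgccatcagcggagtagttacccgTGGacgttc
The IGKV5-39 chain was in 313 barcodes (6.79%) of the library labelled Healthy. In all 291 of those with a heavy chain that chain was the same, from IGHV1-81, and 290 of these were of the class IgG2b. Of its 289 barcodes in the gene expression library, 37.4% had a B cell marker UMI, and its contig had a median of 4 UMIs and a highest value of 1682. The IGKV5-43 chain was in 93 barcodes, 92 of them with 1 heavy chain of the IgA class. The same library held 58 barcodes of an IGKV13-85 to IGKJ1 chain, of which 56 had 1 IgG2c heavy chain.

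In AS the IGKV9-124 chain alone made up 431 of 965 light chain barcodes (44.7%). Only 18 of the 431 were gene expression barcodes, and 0 of 18 had a B cell marker UMI, which allows a share of up to 16.7%. All 116 with a heavy chain had the same IgG2b chain from IGHV1-42. No barcode with this light chain had more than 10 contig UMIs. The IGKV4-91 chain of AS was in 222 barcodes (23.0%), of which 13 were gene expression barcodes, and 29 of its 34 heavy chains were the same IgM chain from IGHV1-26. It was followed by IGKV1-135 to IGKJ1 with 66 barcodes, of which 49 had 1 IgA chain, and by IGKV12-41 to IGKJ2 with 49. Outside the gene expression barcodes, AS had 23 distinct light chains in 888 barcodes, and inside it had 31 in 77.

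Chains with 1 leading heavy chain held 96 of 334 light chain barcodes (28.7%) in MTZ-treated and 138 of 2226 (6.20%) in MTZ-preventive. In MTZ-treated the IGKV8-24 to IGKJ5 chain was in 30 barcodes, with 1 IgM heavy chain in all 15 that had one, and 2 of the 30 were gene expression barcodes. The IGKV1-133 chain was in 29, with the same IgA heavy chain in all 29 and 1 gene expression barcode. In MTZ-preventive the IGKV4-70 chain was in 51 barcodes, 47 of them with 1 IgG2c heavy chain, and an IGKV12-44 to IGKJ5 chain was in 31, 30 of them with 1 IgM heavy chain and with a median of 1055 contig UMIs.

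For contrast, the IGKV10-96 to IGKJ1 chain was the commonest kappa chain with many heavy chains in the library labelled Healthy.
IGKV10-96 to IGKJ1: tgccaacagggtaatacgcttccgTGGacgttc
It was in 62 barcodes there, all of them gene expression barcodes, and 61 of the 62 had a B cell marker UMI. Its 32 heavy chains were all different. It was also in 33 MTZ-preventive barcodes, where 17 heavy chains were all different, in 4 MTZ-treated barcodes and in 1 AS barcode.

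Use of the kappa J genes differed between the libraries by barcode and much less by pair. IGKJ3, which is not functional in mice, was in 0 of 7817 kappa barcodes, which allows a share of up to 0.0384%. IGKJ1, the J gene nearest the V genes, made up 37.8% of kappa barcodes for the group labelled Healthy (36.4 to 39.3), 15.5% for AS, 26.6% for MTZ-treated and 31.9% for MTZ-preventive (29.9 to 33.9). IGKJ5, the farthest, made up 21.4%, 46.9%, 23.0% and 24.5%. IGKJ4 was at 13.3%, 23.8%, 14% and 13.1%, and IGKJ2 at 27.4%, 13.7%, 36.3% and 30.6%. In AS 1 chain made up 431 of the 453 IGKJ5 barcodes and another 222 of the 230 IGKJ4 barcodes.

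Counted by distinct pair, the libraries labelled Healthy and MTZ-preventive had nearly the same J use. IGKJ1 held 30.9% (28.8 to 33) and 30.2% (27.1 to 33.3), IGKJ2 31.0% and 31.5%, IGKJ4 13.5% and 13.4%, and IGKJ5 24.5% and 24.9%. Leaving out the chains with 1 leading heavy chain gave 31.1% and 31.5% for IGKJ1. In AS the same step left 138 barcodes with IGKJ1 at 60.9%. Of these barcodes, 42 were 1 IGKV8-24 to IGKJ1 chain that was not found with a heavy chain in AS. MTZ-treated had 40 kappa pairs, with IGKJ1 at 30% (16.6 to 46.5), and AS had 22, with IGKJ5 at 13.6% (2.91 to 34.9), so that neither could be told from the deeper libraries at this depth.

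**Figure D3:**
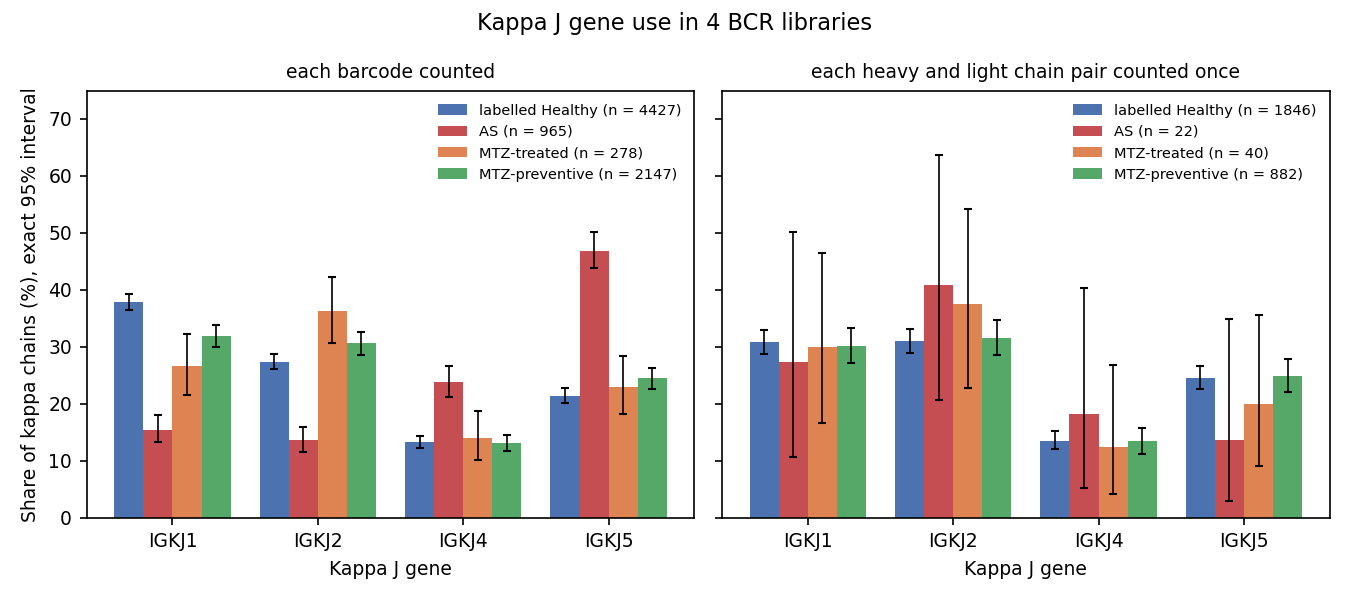
Share of kappa chains with each J gene in percent (y axis, from 0) in the 4 BCR libraries, over all barcodes (left) and over distinct pairs of heavy and light chain (right), with exact 95% intervals for counting error. The AS bar for IGKJ5 stands at 46.9% on the left and 13.6% on the right, and the bars of the libraries labelled Healthy and MTZ-preventive lie level on the right.

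In all, 91 kappa V genes were seen, 87 of them for the group labelled Healthy, 29 for AS, 50 for MTZ-treated and 86 for MTZ-preventive. The library labelled Healthy used IGKV5-39 most (8.63% of kappa barcodes), followed among the named genes by IGKV1-117 (4.36%), IGKV10-96 (4.31%), IGKV6-15 (3.82%) and IGKV1-135 (3.70%). Among the named genes MTZ-preventive used IGKV1-117 at 5.36%, IGKV10-96 at 4.61%, IGKV6-15 at 4.56%, IGKV1-110 at 4.38% and IGKV1-135 at 3.35%. The named genes were picked partly by their average over the libraries, so the overlap of these lists is not a result. Over the 91 genes the percentages of the 2 libraries had a Pearson's r of 0.70 and a Spearman's rho of 0.92, given as a description across genes, which are not independent. Of the 54 genes with at least 30 barcodes over both libraries, 48 had a ratio of MTZ-preventive to the library labelled Healthy between 0.5 and 2.

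The V genes at either end of that ratio were picked by it, so their intervals give no support for a difference. Among them, IGKV5-39, IGKV5-43, IGKV14-126 and IGKV4-70 each held a repeated chain with 1 leading heavy chain. IGKV5-39 was at 382 of 4427 kappa barcodes in the library labelled Healthy and at 15 of 2147 in MTZ-preventive, a ratio of 0.0810 (0.0449 to 0.135). Without chains with 1 leading heavy chain it was 0.764 (0.390 to 1.42). IGKV5-43 had a ratio of 0.386 (0.250 to 0.576) by barcode and 1.01 (0.477 to 2.02) by pair. IGKV4-70 had a ratio of 13.3 (6.54 to 30.5) by barcode and 1.20 (0.257 to 4.70) by pair. By pair IGKV5-39 had 0.455 (0.135 to 1.22), so the intervals of all 3 genes included 1 when each pair was counted once. The lower end also held IGKV14-126 at 0.295 (0.113 to 0.654), IGKV12-38 at 0.317 (0.0805 to 0.914) and IGKV16-104 at 0.580 (0.243 to 1.24), and by pair their ratios were 0.571, 0.523 and 0.369, all with intervals that include 1. The upper end also held IGKV4-53 at 2.30, IGKV4-55 at 1.64 and IGKV13-84 at 1.63, and by pair these were 1.05, 1.88 and 3.07, of which the last had an interval (1.52 to 6.36) that does not include 1.

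IGKV1-110 was higher in MTZ-preventive by both counts, with a ratio of 1.67 (1.26 to 2.21) by barcode and 2.05 (1.32 to 3.17) by pair. It too was picked for its high ratio, and the pairs come from the same barcodes. The count by pair is therefore not separate support. By distinct light chain the direction was turned, with 24 chains (3.19%) in the library labelled Healthy and 11 (2.1%) in MTZ-preventive. This gene lies at chr6:68270527-68271265 of GRCm38.p6, 2.45 Mb from IGKJ1. A single CDR3 of 1 join made much of the difference and is shown for that reason.
IGKV1-110 to IGKJ2: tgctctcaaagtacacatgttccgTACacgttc
This CDR3 was in 35 of the 94 IGKV1-110 barcodes of MTZ-preventive (37.2%, 27.5 to 47.8), where 18 heavy chains were all different. It was in 1 AS barcode and, in the library labelled Healthy, in 1 of 116 (0.862%, 0.0218 to 4.71). With any CDR3, the join of IGKV1-110 to IGKJ2 was in 48 barcodes of MTZ-preventive and 12 of the library labelled Healthy. That single Healthy-labelled barcode held 5676 contig UMIs, and in gene expression 4944 Igkv1-110 UMIs among its 10227 UMIs, with 470 UMIs of Jchain, the joining chain of secreted IgM and IgA. It alone carried 42.7% of the Igkv1-110 UMIs of the library labelled Healthy.

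**Figure D4:**
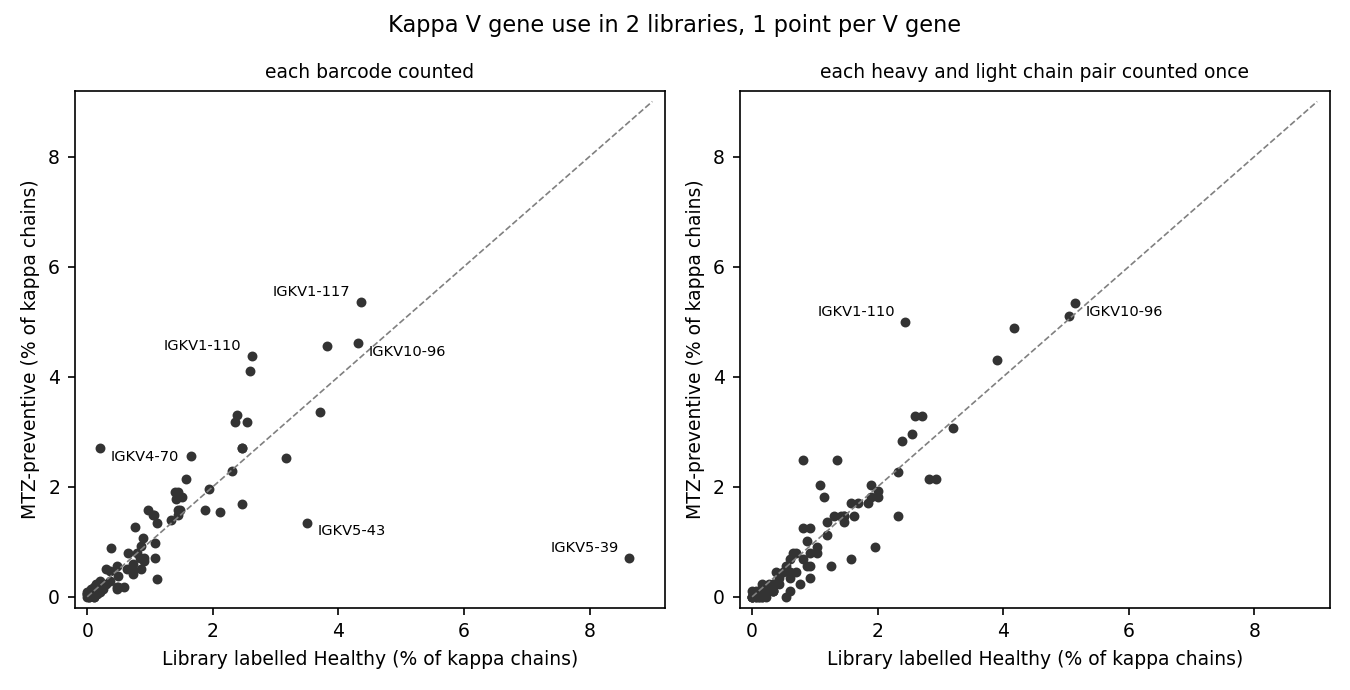
Kappa V gene use in MTZ-preventive (y axis) against the library labelled Healthy (x axis), both as percent of kappa chains, 1 point per V gene, over all barcodes (left) and over distinct pairs of heavy and light chain (right), with a dashed line of equal use. IGKV5-39 lies at 8.63% and 0.699% on the left, and on the right IGKV1-110, at 2.44% and 4.99%, is the labelled gene away from the line.

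The V genes that led AS were those of repeated chains, as were IGKV8-24 and IGKV1-133 in MTZ-treated. IGKV9-124 made up 44.7% of kappa barcodes in AS (41.5 to 47.9) and 0.881%, 1.44% and 1.07% in the libraries labelled Healthy, MTZ-treated and MTZ-preventive. IGKV4-91 made up 23.7% in AS, 9.35% in MTZ-treated (6.20 to 13.4), 1.06% in the library labelled Healthy and 1.49% in MTZ-preventive. Of the 26 MTZ-treated barcodes, which held 4 distinct light chains, 22 were in the gene expression library. Only 7 of them had a heavy chain, as 6 distinct pairs, so no IGKV4-91 chain of MTZ-treated reached the 10 barcodes with a heavy chain needed to class it. IGKV8-24 made up 11.5% of MTZ-treated and 4.77% of AS kappa barcodes, against 1.87% and 1.58% in the deeper libraries, and IGKV1-133 10.4% of MTZ-treated and at most 0.233% elsewhere. Without the chains with 1 leading heavy chain these were 0.913% and 0 of 219 in MTZ-treated. In AS IGKV1-135 was at 6.84% and IGKV12-41 at 5.08%, each of them a single chain. IGKV12-46 and IGKV9-120 showed no such excess: in the order given at the start IGKV12-46 was at 2.39%, 0.415%, 3.96% and 3.31%, and IGKV9-120 at 2.46%, 0 of 965 (which allows up to 0.311%), 3.6% and 2.7%.

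Counted by distinct pair, V and J genes were not combined evenly along the kappa locus. The V genes seen lie on chromosome 6 between 0.02 Mb (IGKV3-1) and 3.17 Mb (IGKV2-137) from IGKJ1. By distinct pair, V genes within 1 Mb of IGKJ1 were joined to IGKJ1 in 27.9% (24.8 to 31.2) of 777 pairs in the library labelled Healthy and in 22.9% (18.6 to 27.6) of 354 in MTZ-preventive. V genes from 2 to 4 Mb away were joined to IGKJ1 in 38.9% (35.3 to 42.5) of 730 and 38.1% (33 to 43.4) of 352. IGKJ5 went the other way, at 28.1% and 29.7% for the near V genes and 17.5% and 18.8% for the far ones. By pair both libraries had the same order, and their intervals for near and far V genes did not overlap for either J gene. By distinct light chain the order was the same but all these intervals overlapped, with IGKJ1 at 32.1% for near and 34.6% for far V genes in the library labelled Healthy and 29.8% and 38.5% in MTZ-preventive. IGKJ5 was then at 27.5% and 20.5% in the former and 25.6% and 23.7% in the latter. For V genes from 1 to 2 Mb away the libraries differed more, with IGKJ1 at 20.4% of 339 pairs and 29.0% of 176. By barcode the contrast for IGKJ1 was turned in the library labelled Healthy, with 42.0% for near and 36% for far V genes. The near V genes there include IGKV5-39, whose leading chain is joined to IGKJ1.

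**Figure D5:**
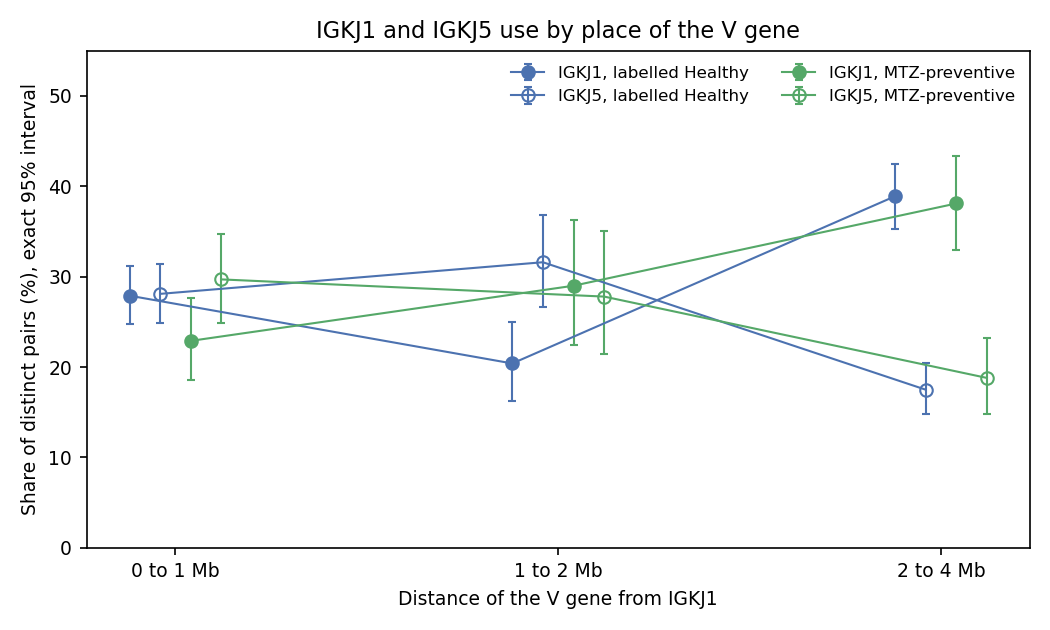
Share of distinct pairs joined to IGKJ1 (filled points) or IGKJ5 (open points) in percent (y axis, from 0) for V genes in 3 ranges of distance from IGKJ1 in Mb (x axis), in the libraries labelled Healthy and MTZ-preventive, with exact 95% intervals for counting error. IGKJ1 lies at 38.9% and 38.1% for the farthest V genes, and IGKJ5 at 17.5% and 18.8%.

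Distinct light chains were often found in several libraries, while pairs were not. Of 949 distinct light chains, 546 were seen in 1 library, 282 in 2, 106 in 3 and 15 in all 4. The 15 held 14.2% of all light chain barcodes, and the 546 held 10.8%. The libraries labelled Healthy and MTZ-preventive shared 393 light chains, 50.8% and 72.5% of their chains. They shared 1 pair of heavy and light chain out of 1933 and 925, and no other 2 libraries shared a pair. The length of the CDR3 went with this sharing: 11 residues were found in 58.1% of 530 kappa chains seen in 1 library, 88.1% of 278 seen in 2, 92.9% of 99 seen in 3 and all 15 seen in 4. The chains seen in more libraries were also those with more barcodes, at a mean of 1.60 for 1 library and 76.9 for 4. Between 1 and 9 light chain barcodes were common to any 2 BCR libraries, and none of these carried the same chain in both. By comparison, 209 to 805 gene expression barcodes were common to any 2 libraries.

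Among distinct kappa chains, CDR3s of 11 residues were 74.2% of 753 for the group labelled Healthy, 90.7% of 43 for AS, 86.9% of 122 for MTZ-treated and 81.9% of 525 for MTZ-preventive. Those of 10 residues were 15.0%, 4.65%, 9.84% and 10.3%. By barcode the 11-residue share was 89.9%, 99.0%, 92.4% and 91.3%, so the libraries lay closer by barcode than by distinct chain here.

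A pair of heavy and light V gene combinations was looked at after the values had been seen, because both are known from B-1 cells, innate-like B cells whose receptors bind phosphatidylcholine. IGHV11-2 with IGKV14-126 was in 32 barcodes of the library labelled Healthy, as 4 distinct pairs with 2 distinct light chains, and all 32 were in the gene expression library. Elsewhere it was in 1 MTZ-treated and 1 MTZ-preventive barcode. Most of the 32 were a single chain.
IGKV14-126 to IGKJ4: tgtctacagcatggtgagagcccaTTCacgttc
It was in 24 barcodes, all with the same IgM heavy chain, and 22 of the 24 had a B cell marker UMI. Its highest contig value was 8447 UMIs, and 1 barcode held 6306 of the Igkv14-126 UMIs of that library with 442 Jchain UMIs. IGHV12-3 with IGKV4-91 was in 2 barcodes of the library labelled Healthy, 5 of MTZ-treated as 4 distinct pairs, and 10 of MTZ-preventive as 2 distinct pairs. In AS it was in 0 of 35 barcodes with IGKV4-91 and a heavy chain, which allows up to 8.57%. With so few distinct pairs, the libraries could not be told apart on these combinations.

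Barcodes with more than 1 light chain contig were found in the deeper libraries. In the library labelled Healthy 3.45% of light chain barcodes (2.94 to 4.02) had a second kappa contig, in MTZ-preventive 2.79% (2.14 to 3.56) and in MTZ-treated 0.299%, and both kappa and lambda were in 21, 16 and 1 barcodes. AS had 0 of 965 with more than 1, which allows up to 0.311%. In the library labelled Healthy, barcodes with more than 1 kappa contig had a median of 2642 gene expression UMIs, against 1813 for those with a single light chain contig. Whether these were cells with both chains or droplets with more than 1 cell was not tested. Barcodes that also stood in the T cell receptor library numbered 84 in the library labelled Healthy, 19 in MTZ-preventive and none in the others.

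The lambda share was also read by antibody class. Among IgM or IgD barcodes the lambda share was 4.34% of 2003 in the library labelled Healthy, 4.08% of 49 in MTZ-treated and 5.16% of 969 in MTZ-preventive, and 0 of 109 in AS. Among IgA barcodes of MTZ-treated 35 of 69 (50.7%) were lambda, all of the chain described above, and by pair lambda was 1 of 4. Among IgG barcodes 1 of 354 was lambda in the library labelled Healthy, 0 of 119 in AS (interval up to 3.05%), 0 of 4 in MTZ-treated and 1 of 74 in MTZ-preventive. In the IgM or IgD class the MTZ-treated interval (0.498 to 14) covered the values of the deeper libraries, and by pair its share was 5.88% of 34, against 4.51% and 4.69%.

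The gene expression libraries gave a second reading of the light chain V genes. In barcodes with a kappa contig and a V gene UMI, the V gene with the most UMIs was that of the contig in 95.8% of 4277 for the group labelled Healthy, 100% of 77 for AS, 96.1% of 180 for MTZ-treated and 95.3% of 1929 for MTZ-preventive. For lambda contigs it was 80.7% of 166, 95.8% of 48 in MTZ-treated and 85.3% of 75 in MTZ-preventive. The constant genes, which give only the kind of chain, matched less well for kappa contigs. Barcodes with a kappa contig had more Igkc than Iglc1, Iglc2 and Iglc3 UMIs in only 44.1%, 67.5%, 34.1% and 39.4% of cases with any such UMI. By V gene UMIs the kind of chain matched in 99.4%, 100%, 98.9% and 99.5%. For lambda contigs the constant genes matched in 89.1% of 119 for the group labelled Healthy, 100% of 21 for MTZ-treated and 86.8% of 38 for MTZ-preventive. Iglc2 had a UMI in 47.6% of the light chain barcodes of the library labelled Healthy, against 8.20% of its barcodes with no light chain contig. Igkc itself was at 301 CPM in that library, 34.0 for AS, 15.7 for MTZ-treated and 82.0 for MTZ-preventive. In bulk sums such as these, fewer B cells and less RNA per cell cannot be told apart. Per barcode, those with a light chain contig made up 20.4%, 1.11%, 1.09% and 8.57% of the gene expression barcodes. Igkc had a UMI in 58%, 44.2%, 38% and 43.7% of them. The part of each in the Igkc sums was not tested.

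The lambda share was also read from V gene UMIs. Lambda genes Iglv1, Iglv2 and Iglv3 held 4.19% of the V gene UMIs for the group labelled Healthy, 4.30% for AS, 23.9% for MTZ-treated and 29.4% for MTZ-preventive. The leading 5 barcodes held 95.2% of the lambda UMIs in MTZ-preventive and 74% in AS, but 17.2% in the library labelled Healthy and 17.3% in MTZ-treated. A spread over barcodes is not a spread over chains. Most of the leading 5 in MTZ-treated had an IGLV1 contig with an IGHV6-3 heavy chain of the IgA class, as in the repeated chain described above. The part of the MTZ-treated lambda UMIs held by that chain was not tested. In MTZ-preventive 96.2% of 30317 Iglv1 UMIs came from 5 barcodes, and the leading 4 of those for lambda as a whole held 5593 to 8501 lambda UMIs each, with 356 to 940 Jchain UMIs and an IgM heavy chain. Counted per barcode, among those with at least 2 B cell markers and at least 3 V gene UMIs, lambda led in 5.48% of 2737 in the library labelled Healthy (4.66 to 6.4), 12.7% of 79 in MTZ-treated (6.24 to 22) and 3.95% of 912 in MTZ-preventive (2.78 to 5.42). In AS it led in 0 of 9, with an exact upper limit of 33.6%. Among those of these barcodes with no light chain contig, the libraries labelled Healthy and MTZ-preventive lay farther apart. Lambda led there in 13.9% of 280 (10.1 to 18.5) and 2.54% of 118 (0.527 to 7.25). MTZ-treated had 11.1% of 9 such barcodes. Whether the contigs of the library labelled Healthy miss lambda chains was not tested. AS was not free of lambda RNA, since it held 69 Iglv1 UMIs in 21 barcodes. Of these, 46 were in 1 barcode, whose contig was IGKV4-86 and which also held 108 kappa V gene UMIs.

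Finally, UMIs of the V genes used by the leading chains were also found in barcodes with neither a light chain contig nor a B cell marker. Such UMIs cannot be assigned to a chain, and other chains use the same V genes. In the library labelled Healthy, for instance, 193 barcodes had an IGKV1-117 contig and 61 of them the leading chain. Igkv9-124 had a UMI in 1.80% (1.49 to 2.15) of 6674 such barcodes in AS, and no barcode there had more than 7 of its 201 UMIs. Igkv4-91 had one in 1.54% of them, with 55.6% of its UMIs in 1 barcode. That barcode held 269 Igkv4-91 and 52 Jchain UMIs. Its light chain was found in no other AS barcode, so it was not the leading IGKV4-91 chain. In the library labelled Healthy Igkv5-39 had a UMI in 1.68% of 11701 such barcodes, Igkv1-117 in 1.18% and Igkv5-43 in 0.359%. In MTZ-treated Iglv1 had one in 0.208% of 20180, and in MTZ-preventive Igkv4-70 had one in 0.053% of 18877. The V genes of the other leading chains of MTZ-preventive were higher, with Igkv12-44 at 0.72%, Igkv1-117 at 0.673%, and Igkv1-110 and Igkv10-96 at 0.424%. Across the 91 kappa V genes, the number of barcodes with the contig and the number of light chain barcodes with a UMI of the gene had a Spearman's rho of 0.98, 0.88, 0.98 and 0.97 in the 4 libraries, a description across genes. The part of free RNA in the barcodes of the repeated chains was not tested.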

How the data were processed

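The BCR, T cell receptor and gene expression libraries were made with the 10x system from aortas, with the mouse build mm10 per the labels. The headers of the gene expression matrices name Cell Ranger 5.0.0, and the authors' processing notes also name STAR. These matrices hold deposited raw UMI counts, 1 for each gene in each barcode. The receptor files hold deposited counts of UMIs and reads for each contig, and all contigs are marked productive. The paper's methods leave the receptor libraries undescribed. The version of the receptor assembly is not given in the sources used here, nor are its filters.

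Per barcode, the IGK or IGL contig with the most UMIs was kept. A distinct light chain was a V gene with a CDR3 nucleotide sequence, and a distinct pair added the heavy chain V gene and CDR3. A light chain with 1 leading heavy chain had at least 10 barcodes with a heavy chain, of which most shared 1. Shares have exact Clopper-Pearson 95% intervals and ratios have exact conditional binomial intervals. A count of 0 was read as allowing up to 3 counts. Ratios that involve AS were taken at those 3 counts, without the counting error of the other library. With 1 library per group no test was made, and since reads and droplets are not independent samples, intervals cover counting error only. Intervals and counting were tested on simulated barcodes drawn independently of each other, so the effect of repeated chains on the intervals was not tested. CPM are UMIs of a gene per 1000000 UMIs of the library. No doublets were removed. Of the B cell markers fixed with the design, 1 is not reported here, and B cell marker values rest on Cd79a, Cd79b and Ms4a1. The study's limits on cells (over 200 genes, over 1000 UMIs, complexity over 0.7, under 10% mitochondrial and 5% red blood cell UMIs) were an alternative.

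Named genes were all lambda and J genes, the 12 kappa V genes highest on average over libraries with at least 100 kappa barcodes, and the 5 highest and 5 lowest ratios of MTZ-preventive to the library labelled Healthy among V genes with at least 30 barcodes. The repeated chains, the IGKV1-110 CDR3 and the V gene combinations were singled out after values were seen. Members and lists were chosen with earlier results of these data known. All 94 V genes matched RefSeq (GRCm38.p6) for position. CDR3 sequences come from the receptor files. Python 3.11.15, numpy 2.4.6, scipy 1.17.1, pandas 2.3.3 and matplotlib 3.10.9 were used.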

Additional observations from a re-analysis of the deposited data

How the results depend on the processing

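The lambda shares and ratios were recomputed under 11 alternatives set with the design and 3 chosen after seeing the data (distinct pairs, without chains with 1 leading heavy chain, barcodes with a B cell marker). Of 56 lambda shares 41 stayed within the counting interval of the reported value. The AS shares are among these, although AS had no lambda barcode and its share could not move. Of 54 log2 ratios 22 stayed within the interval or, for those that involve AS, did not move. Alternatives that left AS too few barcodes for such a ratio gave no value. Leaving out barcodes shared between libraries with the same chain removed none. The cause of each move was not tested.

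The MTZ-treated share was 7.62% outside gene expression, 12.9% within the study's limits, 29.8% with a heavy chain, 5.79% by amino acid chain, 6.15% by nucleotide chain, 6.98% by pair, 7.98% without chains with 1 leading heavy chain and 7.01% with a B cell marker. That of the library labelled Healthy was 11.3% outside gene expression, 3% by amino acid chain and 2.59% by nucleotide chain. That of MTZ-preventive was 2.31% outside, 4.86% with a heavy chain, 2.5% by amino acid chain and 4.65% by pair.

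On the log2 scale, MTZ-treated to the library labelled Healthy (2.06) turned to -0.57 outside gene expression, and was 3.05 with a heavy chain, 0.95 and 1.25 by amino acid and nucleotide chain, 0.63 by pair, 0.81 without chains with 1 leading heavy chain and 0.77 with a B cell marker. MTZ-preventive to that library (-0.18) was -2.29 outside, 0.43 with a heavy chain and 0.28 by nucleotide chain. The ratios that involve AS set it at 3 counts and leave out the counting error of the other library. AS to the library labelled Healthy (-3.69) was at -5.07 outside, -1.74 with a heavy chain, -3.67 without T cell receptor barcodes, -3.65 with 1 contig, -3.74 by reads, -3.34 with at least 3 UMIs and -1.06 without chains with 1 leading heavy chain. MTZ-treated to AS (5.75) was at 2.43 inside and 4.50 outside gene expression, 0.51 within the study's limits, 4.79 with a heavy chain, 5.76 with 1 contig, 5.78 by reads, 5.59 with at least 3 UMIs and 1.88 without chains with 1 leading heavy chain. MTZ-preventive to AS (3.51) was at 2.77 outside, 2.17 with a heavy chain, 3.53 without T cell receptor barcodes, 3.41 with 1 contig, 3.55 by reads, 3.13 with at least 3 UMIs and 0.80 without chains with 1 leading heavy chain.

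Among 271 ratios of V genes, 10 changed sign, all when chains or pairs were counted once. By amino acid and nucleotide chain the log2 ratio of MTZ-preventive to the library labelled Healthy was 0.22 and 0.35 for IGKV5-39, -0.24 and -0.61 for IGKV1-110, 0.03 and 0.11 for IGKV14-126 and 0.12 and 0.03 for IGKV5-43, which was 0.01 by pair. IGKV4-70 was at -0.14 by amino acid chain. Of 224 J shares 80 moved beyond their interval, and of 121 lambda V shares 26 did.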
